A study of Mus musculus with 20 samples.

Results

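Setdb1 peaks at transcription start sites were examined in the livers of young and old mice. They were the peaks of the Setdb1 lists that lay on chromosomes 1 to 19, were exactly 200 bp wide and came within 1 kb of the start of a transcript in the GENCODE basic annotation of mm10 (GRCm38). In young liver 2069 of 47906 autosomal 200 bp peaks met these criteria, from a list of 50583 peaks of all widths. In old liver 582 of 13426 did, from a list of 13877. The rule used position only, and no measured value entered it.

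The study mapped Setdb1, Kap1 and acetylation of histone H3 at lysine 14 (H3K14ac) by ChIP-Seq, in which chromatin bound by an antibody is sequenced. All animals were wild-type male C57BL/6 mice without treatment, young at 3 months and old at 21 months of age. The authors merged the reads of 3 livers per age for Setdb1 and for H3K14ac, and of 2 livers per age for Kap1, before calling peaks, by the methods and the sample labels, while figure legends name 2 merged replicates. Each mark and age therefore has 1 list, 6 lists and 175329 peaks in all, which hold positions without heights or scores. Neither the depth of a peak nor the variation among livers can be read from them, and young and old are therefore set side by side without a test. Shares are given with 95% Wilson intervals, which cover counting error only. Whole liver holds several cell types, and a smaller number of cells of a type cannot be told apart from less binding per cell.

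Setdb1 is a histone methyltransferase that trimethylates lysine 9 of histone H3 (H3K9me3), a mark of silenced chromatin. It is brought to DNA mainly by Kap1 (Trim28), a corepressor that zinc finger proteins with a KRAB domain recruit to endogenous retroviruses, to the 3′ exons of zinc finger genes and to imprinted loci. Its tandem Tudor domain binds histone H3 tails that carry both lysine 9 methylation and lysine 14 acetylation, and H3K14ac itself is a mark of active promoters. Setdb1 also keeps germline genes and clustered receptor genes silent in other tissues.

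The sequences shown first belong to the start sites that were occupied at both ages, since these are the sites where the young and the old list point to the same bases. Of the pairs of a young and an old start-site peak that shared at least 1 base, 18 are described here, and 11 of them lay at protein-coding genes. The 7 printed below are those at protein-coding genes that touch no untranslated region and have a single copy in the genome. Each is the 200 bp young peak on the plus strand of GRCm38, and the capitals mark the bases shared with the old peak. The peaks are Zscan25 at chr5:145282455-145282654, Tas2r125 at chr6:132910358-132910557, Vmn1r70 at chr7:10633775-10633974, Olfr568 at chr7:102877726-102877925, Ifi27l2a at chr12:103444263-103444462, Nrsn1 at chr13:25263027-25263226 and Olfr1495 at chr19:13769057-13769256.
Zscan25: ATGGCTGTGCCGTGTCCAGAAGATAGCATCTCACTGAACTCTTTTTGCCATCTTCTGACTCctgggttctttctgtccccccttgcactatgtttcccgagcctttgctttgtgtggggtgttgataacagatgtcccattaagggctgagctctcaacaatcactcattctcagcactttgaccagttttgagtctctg
Tas2r125: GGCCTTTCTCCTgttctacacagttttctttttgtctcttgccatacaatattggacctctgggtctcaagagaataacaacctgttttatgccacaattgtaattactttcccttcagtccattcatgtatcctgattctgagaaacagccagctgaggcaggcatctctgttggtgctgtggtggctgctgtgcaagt
Vmn1r70: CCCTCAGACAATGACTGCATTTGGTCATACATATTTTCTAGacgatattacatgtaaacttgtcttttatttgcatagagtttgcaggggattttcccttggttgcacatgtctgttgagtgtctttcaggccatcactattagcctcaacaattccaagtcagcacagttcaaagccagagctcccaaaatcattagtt
Olfr568: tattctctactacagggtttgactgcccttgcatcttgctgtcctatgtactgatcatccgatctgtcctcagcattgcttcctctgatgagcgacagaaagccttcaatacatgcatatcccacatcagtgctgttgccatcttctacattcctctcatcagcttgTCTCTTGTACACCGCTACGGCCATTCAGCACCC
Ifi27l2a: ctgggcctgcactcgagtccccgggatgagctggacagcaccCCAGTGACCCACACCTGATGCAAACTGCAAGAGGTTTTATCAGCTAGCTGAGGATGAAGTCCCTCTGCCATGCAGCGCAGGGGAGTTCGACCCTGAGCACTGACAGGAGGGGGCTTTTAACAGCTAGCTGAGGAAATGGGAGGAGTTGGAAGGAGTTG
Nrsn1: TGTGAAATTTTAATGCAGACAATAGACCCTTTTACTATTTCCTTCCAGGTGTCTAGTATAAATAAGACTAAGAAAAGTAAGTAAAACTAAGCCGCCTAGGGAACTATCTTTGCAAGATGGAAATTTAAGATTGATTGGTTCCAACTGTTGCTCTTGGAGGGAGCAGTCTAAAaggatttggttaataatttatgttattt
Olfr1495: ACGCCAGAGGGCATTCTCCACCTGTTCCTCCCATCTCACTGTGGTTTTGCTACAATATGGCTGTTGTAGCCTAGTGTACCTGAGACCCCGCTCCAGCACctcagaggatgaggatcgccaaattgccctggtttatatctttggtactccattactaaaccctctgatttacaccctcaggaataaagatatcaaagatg

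These 7 peaks had a GC content from 33.5% at Nrsn1 to 57.5% at Ifi27l2a, and none held more than 4 CpG dinucleotides. The lower and upper quartiles of GC content among all young start-site peaks were 41% and 52%. The peaks of Tas2r125, Vmn1r70, Olfr568 and Olfr1495 lay on coding exons, and all of these genes encode chemosensory receptors. The peak of Zscan25, a SCAN domain zinc finger gene, and that of Nrsn1, a neuronal vesicle membrane protein, lay in introns of overlapping transcripts upstream of the start site. The peak of Ifi27l2a, an interferon-induced gene, lay between genes.

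A further set of sequences comes from start-site peaks that coincided with other marks. In young liver 3 start-site peaks lay on both an H3K14ac and a Kap1 peak, at the miRNA gene Gm27878 (chr4:3051254-3051453) and at the processed pseudogenes Gm20399 (chr7:5904933-5905132) and Gm47114 (chr14:41191376-41191575). The intronic old peak of Zfp658, a zinc finger gene (chr7:43562592-43562791), lay on an H3K14ac peak without Kap1 and was chosen for printing after its values were seen. Capitals mark the bases shared with the H3K14ac peak of the same age, again on the plus strand of GRCm38.
Gm27878: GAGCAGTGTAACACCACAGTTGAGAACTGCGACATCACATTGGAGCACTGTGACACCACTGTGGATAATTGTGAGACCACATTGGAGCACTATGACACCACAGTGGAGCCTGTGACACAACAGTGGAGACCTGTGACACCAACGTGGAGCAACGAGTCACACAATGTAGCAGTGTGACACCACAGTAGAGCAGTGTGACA
Gm20399: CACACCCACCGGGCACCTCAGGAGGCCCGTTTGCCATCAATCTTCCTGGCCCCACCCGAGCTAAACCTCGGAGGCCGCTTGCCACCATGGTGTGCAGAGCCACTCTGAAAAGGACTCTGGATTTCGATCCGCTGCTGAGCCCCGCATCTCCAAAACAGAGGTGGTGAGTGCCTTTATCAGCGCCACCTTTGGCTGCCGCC
Gm47114: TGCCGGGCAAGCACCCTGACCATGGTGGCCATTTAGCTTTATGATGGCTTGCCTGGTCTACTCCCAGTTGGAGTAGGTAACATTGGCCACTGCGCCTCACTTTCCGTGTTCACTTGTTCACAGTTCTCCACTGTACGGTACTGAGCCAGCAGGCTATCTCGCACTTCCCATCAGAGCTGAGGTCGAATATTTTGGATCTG
Zfp658: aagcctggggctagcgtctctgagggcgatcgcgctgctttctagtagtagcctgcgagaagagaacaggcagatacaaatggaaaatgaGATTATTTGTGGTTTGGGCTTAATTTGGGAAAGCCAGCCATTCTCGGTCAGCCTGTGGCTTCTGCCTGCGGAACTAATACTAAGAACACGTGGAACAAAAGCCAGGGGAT

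The first 3 peaks lay wholly within their H3K14ac peak. The Gm27878 peak is repetitive, with the unit GACACCA occurring in it 4 times, whereas the Gm20399 peak held 10 CpG dinucleotides at a GC content of 61.0%. The Zfp658 peak held 8 CpG dinucleotides, and the E box CACGTG occurred in it 1 time.

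Over the whole 1 kb window, Setdb1 peaks were no denser than in the genome at large. The start-site share was 4.32% of 200 bp peaks in young liver (95% Wilson interval 4.14% to 4.50%) and 4.33% in old liver (4.0% to 4.69%). For comparison, 4.88% of all autosomal 200 bp positions free of unsequenced bases lie within 1 kb of a start site. The shares of both ages were below that value by more than their intervals. The old list held 28.1% as many start-site peaks as the young list, and 28.0% as many peaks away from start sites, with the 1 kb window taken as a whole. Counted by midpoint, there were 280 old and 860 young peaks within 400 bp of a start site and 263 old and 1032 young peaks at 400 to 1000 bp. A difference in sequencing depth between the lists cannot be told apart from a difference between ages.

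The position of peaks relative to the start site is shown in the profile of peak density. Counted by the peak's midpoint and per Mb of genome at the same distance, young Setdb1 peaks numbered 19 per Mb within 400 bp of a start site, 16.7 per Mb at 400 to 1000 bp and 18.4 per Mb at 1 to 5 kb. Old peaks numbered 6.18, 4.26 and 5.09 per Mb in these 3 zones. The highest density among the old start-site bins was 8.07 per Mb in the first 200 bp downstream, where 97 peaks lay, whereas the same bin held 18.1 young peaks per Mb. H3K14ac had a very different profile, with 68.6 young and 108 old peaks per Mb within 400 bp of a start site against 8.75 and 8.88 per Mb at 1 to 5 kb. Kap1 lay in between. Its young list had 27.0 peaks per Mb within 400 bp and 6607 peaks in 343 Mb at 1 to 5 kb, and its old list had 11.2 and 8.56 per Mb.

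**Figure D1:**
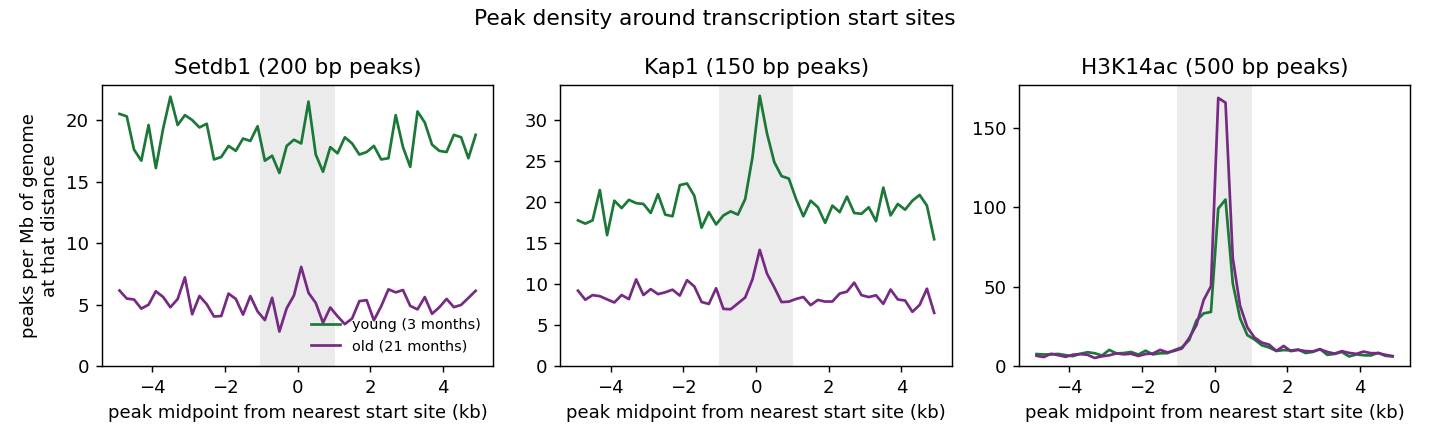
Peaks of the commonest width of each mark per Mb of genome (y axis) against the distance of the peak's midpoint from the nearest start site (x axis, kb, in 200 bp bins, positive values downstream), for young and old liver; the grey band spans 1 kb on either side. The young Setdb1 line is flat near 18 peaks per Mb, the old line reaches 8.07 per Mb just downstream of the start site, and H3K14ac reaches 169 per Mb in old liver.

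The start site itself lay inside the peak in 231 young cases (11.2%, 9.88% to 12.6%) and in 77 old cases (13.2%, 10.7% to 16.2%). Peaks wholly upstream made up 42.3% in young and 38.3% in old liver, and those wholly downstream 46.5% and 48.5%. The gap between peak and start site had a median of 412 bp in the young list and 314 bp in the old. At the edge of the criterion, 177 young peaks lay in the last 100 bp inside the 1 kb limit and 187 in the first 100 bp beyond it, with 38 and 45 in old liver. Coding exons were touched by 11.1% of young peaks (9.79% to 12.5%) and by 14.4% of old peaks (11.8% to 17.5%), while 10% of all 200 bp tiles of the start-site windows touch one. These tiles, 529938 in number, cover the windows end to end and serve below as the description of what a start-site window holds. Introns held 31.7% of young and 25.1% of old peaks against 35.0% of tiles.

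In GC content start-site Setdb1 peaks were nearer to the windows they lay in than to Setdb1 peaks elsewhere, in CpG content they stood between both, and motifs followed no single order. The median GC content was 46.5% in young and 47.5% in old start-site peaks, 46.0% in the tiles, and 44.0% and 44.5% in peaks away from start sites. The mean number of CpG dinucleotides per 200 bp was 3.11 in young and 3.05 in old start-site peaks, below the 3.98 of the tiles and above the 1.60 and 1.63 of peaks elsewhere. Sequences with 10 or more CpG dinucleotides made up 6.62% of young and 6.87% of old start-site peaks. They made up 10.8% of tiles, and 0.362% and 0.491% of peaks elsewhere. The GC box GGGCGG, searched on both strands, occurred in 5.46% of young peaks (4.56% to 6.53%) and in 6.70% of old peaks (4.94% to 9.03%). Of tiles 8.56% held it, and of peaks elsewhere 1.50% in young and 1.60% in old liver. The core of the Onecut motif ATTGAT, which Hnf6 recognises in hepatocytes, occurred in 7.20% of young and 8.08% of old start-site peaks, in 7.73% of tiles, and in 9.57% and 9.28% of peaks elsewhere. The forkhead letters TGTTTAC, known from FOXA factors, occurred in 3.04% of young peaks (2.39% to 3.88%), in 1.72% of old peaks (0.936% to 3.13%), in 2.64% of tiles, and in 2.90% and 3.19% of peaks elsewhere. The CCAAT box occurred in 28.3% of young peaks (26.4% to 30.3%), in 25.1% of old peaks (21.7% to 28.8%), in 25.4% of tiles, and in 29.3% and 30.5% of peaks elsewhere. A match of letters is a description of the sequence and not a site of binding.

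The CpG content of the gene's own 5′ end gave the same order. Protein-coding genes were divided by the ratio of observed to expected CpG within 500 bp of the 5′ end of the gene model, a measure that is low where a promoter has no CpG island. In young liver 5.58% of the 4699 genes with a ratio under 0.2 had a start-site Setdb1 peak (4.96% to 6.27%), and 2.04% of the 4409 genes with a ratio of 0.8 or more (1.66% to 2.50%). In old liver the shares were 2.13% (1.75% to 2.58%) and 0.386% (0.241% to 0.617%). The classes between ran in order at both ages. With olfactory and vomeronasal receptor genes left out, the lowest class stood at 3.90% (young) and 1.42% (old), and the highest share then lay in the class of 0.2 to 0.4, at 4.85% and 1.52%. Genes with a ratio of 0.8 or more remained lowest, at 2.04% and 0.386%.

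**Figure D2:**
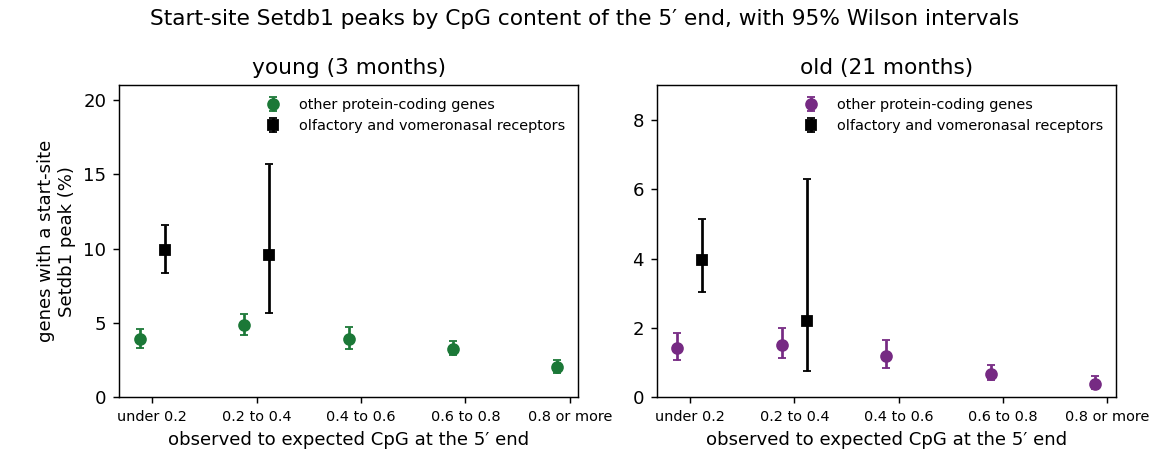
Percent of protein-coding genes with a start-site Setdb1 peak (y axis, with 95% Wilson intervals) by the ratio of observed to expected CpG within 500 bp of the gene's 5′ end (x axis), for olfactory and vomeronasal receptor genes (black squares, shown where a class holds at least 50) and for all other protein-coding genes (coloured circles). Receptor genes under 0.2 stand at 9.89% in young and 3.96% in old liver, above other genes of the same class at 3.90% and 1.42%.

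Across genes, 2140 of 51229 autosomal genes of every biotype had a start-site Setdb1 peak in young liver, which is 4.18%, and 597 had one in old liver, which is 1.17%. Among the 20807 protein-coding genes the numbers were 814, or 3.91%, and 241, or 1.16%. These percentages are the background for every gene group below. Processed pseudogenes, which are reverse-transcribed copies of messenger RNAs, stood at 4.49% in young liver (4.08% to 4.94%) and 1.41% in old liver (1.19% to 1.68%). Genes of long intergenic noncoding RNAs stood at 4.67% (4.12% to 5.27%) and 0.941% (0.712% to 1.24%). For miRNA genes the shares were 5.26% (4.37% to 6.31%) and 0.828% (0.517% to 1.32%). A single peak can count for several clustered miRNA genes, as the young peak at chr3:127544925-127545124 did for Mir302a, Mir302b, Mir302c, Mir302d and Mir367. Such genes are not independent of each other, which the intervals do not cover. Immunoglobulin variable segments, which are arrayed in tandem and not transcribed in hepatocytes, stood at 6.42% in young liver (14 of 218 segments, 3.86% to 10.5%) and at 4.13% in old liver (9 segments, 2.19% to 7.66%). The old count was thus 64.3% of the young count for these segments, 29.6% for protein-coding genes and 15.7% for miRNA genes (17 against 108). Ratios of small groups scattered widely, with 71.4% for rRNA genes (5 against 7) and 5.88% for sense intronic genes (1 against 17). No error can be given for these ratios, so they do not set a biotype apart.

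Of the 18 gene lists, olfactory receptors, the longest list, held the most genes with a start-site peak at both ages. These genes encode the odorant receptors of the nasal epithelium, lie in clusters on many chromosomes and are silent in liver. In young liver 111 of 1128 had a start-site Setdb1 peak, which is 9.84% (8.24% to 11.7%), against the background of 3.91%. In old liver 49 had one, which is 4.34% (3.30% to 5.70%), against 1.16%. The old count was 44.1% of the young one. Per Mb of start-site window, which allows for the number of starts of a gene, olfactory receptors had 28.9 peaks in young and 12.4 in old liver, and all protein-coding genes 16.0 and 4.77. Higher densities were found in young liver for germline genes (46.1, 2 peaks), vomeronasal receptors (41.2, 39 peaks) and cytochrome P450 genes (32.2, 7 peaks). In old liver they were found for clustered protocadherins (17.4, 2 peaks) and cytochrome P450 genes (13.8, 3 peaks). Both olfactory receptor shares stood above the background by more than their intervals. Kap1 peaks within 1 kb of a start were likewise commoner at olfactory and vomeronasal receptors than at other protein-coding genes. In young liver 1141 of all 20807 protein-coding genes had one, and 917 of the 19352 other than these receptors. In old liver the counts were 492 and 393. H3K14ac went the other way, with 3963 and 3907 genes in young and 5752 and 5707 in old liver. These receptor families were not counted apart. Neighbouring receptor genes are similar in sequence and not independent of each other.

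The olfactory receptor peaks touched a coding exon in 48 of 117 cases in young liver (41.0%, 32.5% to 50.1%) and in 21 of 50 in old liver (42.0%, 29.4% to 55.8%). Of the tiles within 1 kb of the start sites of these receptors 27.0% touched one. Chromosomes 7 and 2 held 28 and 25 of the young and 19 and 13 of the old peaks, and 21.6% and 26.1% of the receptor genes. On chromosome 7, 10.2% of 244 receptors had a young and 7.38% an old peak (4.72% to 11.4%), and on chromosome 2, 8.16% of 294 had a young and 4.42% an old peak. On chromosome 19, 17 of 66 receptors had a young peak (25.8%, 16.7% to 37.4%) and 7 an old one (10.6%, 5.23% to 20.3%), where 9.84% and 4.34% of all olfactory receptors did. On chromosomes 1, 4, 6, 10, 15 and 17 no receptor had an old peak, and 5, 4, 2, 6, 1 and 2 had a young one. The upper Wilson limits of the old shares there, from 5.2% on chromosome 10 to 29.9% on chromosome 15, lay above 4.34%. In old liver the 1 Mb bin with the most start-site peaks of the genome was chromosome 7 from 103000001 to 104000000, with 11 peaks that all lay at olfactory receptor genes or pseudogenes, among them Olfr597, Olfr600, Olfr601, Olfr605, Olfr607, Olfr611, Olfr613 and Olfr629. In young liver the bin with the most was chromosome 19 from 13000001 to 14000000, where 11 of 12 peaks lay at olfactory receptor genes or pseudogenes, among them Olfr1453, Olfr1490, Olfr1494, Olfr1495 and Olfr1504. Of the 49 olfactory receptors with an old peak 4 also had a young one, as did 8.04% of all genes with an old peak. The peaks of Olfr568 and Olfr1495 shared bases, and those of Olfr1500 and Olfr196 did not. A second copy of the sequence was found for 9 of the 117 young and 2 of the 50 old peaks. Without peaks that have a second copy, an alternative chosen after seeing the data, the share of olfactory receptors was 9.22% in young and 4.17% in old liver.

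Vomeronasal receptors detect pheromones and are likewise clustered and silent in liver. In young liver 32 of 327 had a start-site peak, which is 9.79% (7.02% to 13.5%), and in old liver 6, which is 1.83% (0.844% to 3.94%). The old interval included the background of 1.16%. Type 1 receptors accounted for 25 of the young genes, or 12% of their 208 members, and type 2 receptors for 7, or 5.88% of 119. Vmn1r84 had 3 young peaks, at chr7:12361567-12361766, chr7:12362348-12362547 and chr7:12369299-12369498, 1 of which lay on its coding exon, and no old one. Vmn1r70 and Vmn1r81 had peaks at both ages. Of the 39 young peaks at vomeronasal receptors 3 met a Kap1 peak (7.69%, 2.65% to 20.3%), and the interval included the 3.29% of all young start-site peaks. A coding exon was touched by 10 of the 39 young peaks (25.6%, 14.6% to 41.1%) and by 2 of the 6 old peaks. Of the tiles within 1 kb of the start sites of these receptors 27.7% touched one.

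**Figure D3:**
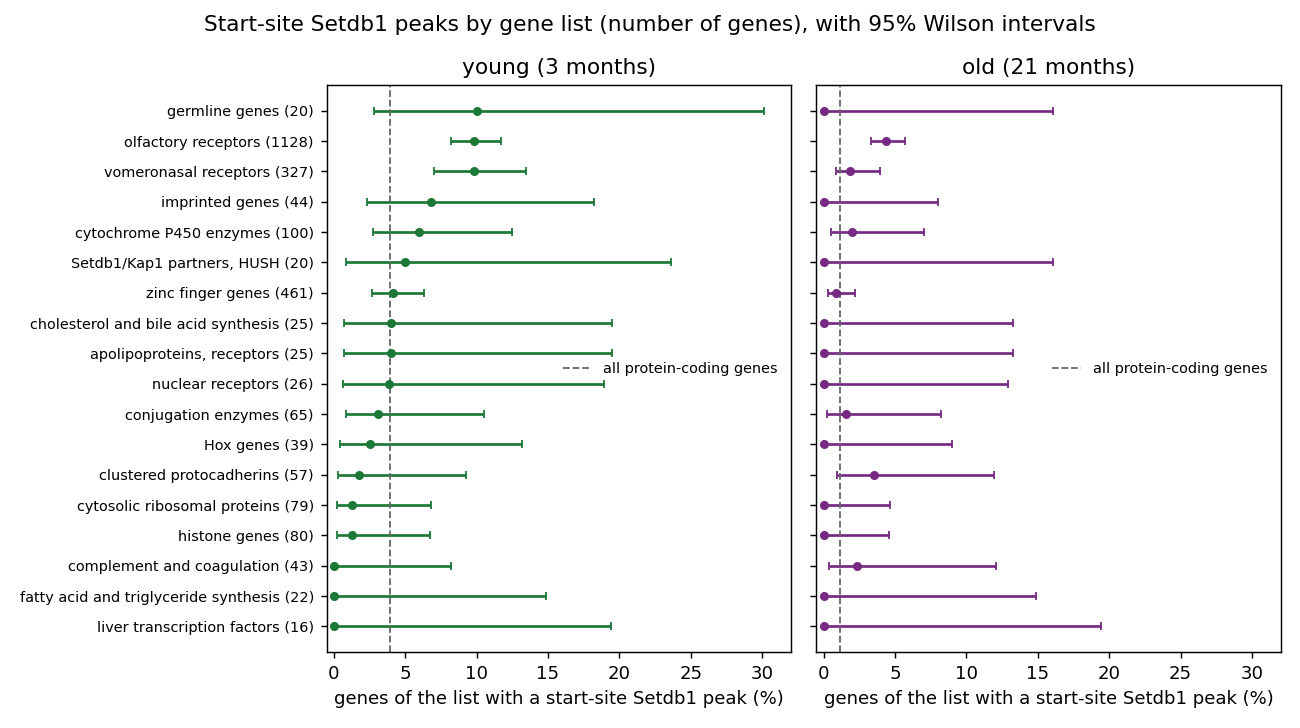
Percent of each gene list with a start-site Setdb1 peak (x axis, with 95% Wilson intervals) in young and old liver, with the number of genes in brackets and the share of all protein-coding genes as a dashed line (3.91% and 1.16%). Olfactory receptors stand to the right of the line at both ages, at 9.84% and 4.34%, and vomeronasal receptors in young liver, at 9.79%.

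Zinc finger genes, which include the KRAB zinc finger proteins that recruit Kap1, were near the background at their start sites. Of 461, 19 had a young peak (4.12%, 2.65% to 6.35%) and 4 had an old peak (0.868%, 0.338% to 2.21%). The 4 genes with an old peak were Zscan25, Zscan18, Zfp658 and Zfp445. Zfp445, a KRAB zinc finger protein that protects imprinting, had its old peak 754 bp inside the gene at chr9:122861175-122861374. The young peaks of Zfp385b, Zfp663 and Zfp426 spanned the start site, and that of Zfp74 had a GC content of 68.5%. Of the 4 genes with an old peak, Zscan25 also had a young one.

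Imprinted genes, another class of known Kap1 targets, had young peaks at 3 of 44 genes (6.82%, 2.35% to 18.2%) and no old peak (upper Wilson limit 8.03%). The H19 peak lay 662 bp upstream of this imprinted noncoding RNA at chr7:142578805-142579004. The Nnat peak lay on a coding exon at chr2:157560215-157560414 with 14 CpG dinucleotides, and the Rasgrf1 peak in an intron at chr9:89910329-89910528. Germline genes known as targets of H3K9 methylation had young peaks at 2 of 20 genes, namely the sperm ADP/ATP carrier Slc25a31 and the testis kinase Stk31, both in introns. The clustered protocadherins, cell adhesion genes of neurons that depend on Setdb1 in brain, had a young peak at Pcdha4 and old peaks at Pcdhb16 and Pcdhgc5, out of 57 genes. Among the genes of Setdb1, Kap1 and their partners, only Dnmt1, the maintenance DNA methyltransferase, had a peak, 945 bp upstream in young liver.

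Genes of hepatocyte function were not set apart from the background by these counts. Cytochrome P450 genes, which encode oxidases of drugs, steroids and bile acids, had young peaks at 6 of 100 genes (6.00%, 2.78% to 12.5%) and old peaks at 2 (2.0%, 0.550% to 7.00%), and both intervals included the background. Cyp7a1, the rate-limiting enzyme of bile acid synthesis, had a young peak 638 bp upstream of its start site at chr4:6276269-6276468. The sequence there is AT-rich, with a GC content of 31.0% and no CpG dinucleotide, and the old list had no peak within 1 kb of the start site. The other young peaks lay at Cyp39a1, an oxysterol hydroxylase, and at Cyp2c29, Cyp2d34, Cyp2j11 and Cyp2ab1. Cyp3a11, a main drug-metabolising enzyme of mouse liver, had an old peak in an intron at chr5:145879225-145879424 and no young one. Cyp2ab1 had 1 young peak at chr16:20316328-20316527 and 2 old peaks at chr16:20315759-20315958 and chr16:20316837-20317036, and no base was shared between the ages. Since Cyp7a1 and Cyp3a11 stand for single positions in pooled lists, no error can be given for their difference between ages.

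No start-site peak of either age was found at the 16 liver transcription factors (upper Wilson limit 19.4%) or at the 22 genes of fatty acid and triglyceride synthesis (14.9%). Both limits lie above the background of 3.91% and 1.16%, so lists of this size cannot show a lower share. Of 25 genes of cholesterol and bile acid synthesis only Cyp7a1 had a peak, and of 25 apolipoproteins and lipoprotein receptors only Apod, a lipocalin that carries small lipids, with a young peak at chr16:31314893-31315092. Of 43 complement and coagulation genes only C1qb, a chain of the C1q complex made by macrophages, had a peak, in old liver at chr4:136885425-136885624. Rora, a nuclear receptor of circadian and lipid genes, had a young peak across its start site at chr9:68653720-68653919 with 19 CpG dinucleotides. Among conjugation enzymes young peaks lay at Gstt4 and Sult4a1 and an old peak at Ugt2a2, out of 65 genes. Histone, Hox and ribosomal protein genes had 1 young peak each, at H2afx, Hoxd3 and Rpl28, of 80, 39 and 79 genes, and no old peak.

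The marker genes of liver cell types were used to check the tissue against H3K14ac. An H3K14ac peak lay within 1 kb of the start site of 4 of 10 hepatocyte markers in young liver (Apoa1, Apob, Tat and Trf) and of 3 in old liver (Apoa1, Apob and Ttr), so that Alb and other defining genes had none. Of all protein-coding genes 19% had such a peak in young and 27.6% in old liver. The old count of markers is near that background, and 10 markers are too few to set the young count apart from it. Markers of Kupffer cells, sinusoidal endothelium, cholangiocytes and lymphocytes had none at either age, while the stellate cell genes Reln and Dcn and the neuronal gene Syt1 had one in young liver. A start-site Setdb1 peak was found at none of the 10 hepatocyte markers and at 1 of the 24 other markers, the cholangiocyte keratin Krt19, in young liver.

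The overlap with H3K14ac was then counted, since Setdb1 binds acetylated H3 tails. In young liver 28 of 2069 start-site Setdb1 peaks had a base in common with an H3K14ac peak, which is 1.35% (0.938% to 1.95%). All 200 bp autosomal Setdb1 peaks stood at 0.712%, and those away from start sites at 0.683% (0.611% to 0.762%). Start-site windows hold many H3K14ac peaks, and 3.10% of all tiles in them met one. The young share thus stood above that of Setdb1 peaks elsewhere and below that of the windows the peaks lay in, in both cases by more than its interval. In old liver 5 of 582 did, which is 0.859% (0.368% to 2.0%), against 0.745% of all Setdb1 peaks and 4.41% of tiles. The old share could not be distinguished from that of old Setdb1 peaks elsewhere, 0.740%, and its interval lay below the share of tiles. With peaks of every width it was 2.0% (12 of 600), and with gaps up to 500 bp the shares were 3.00% in young and 2.58% in old liver.

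The young peaks on H3K14ac included those at Gng5, a G protein subunit, Dctn6, a dynactin subunit, Scnm1, a splicing factor, Fastkd3 and Mtrr, neighbours within 1 kb of the same peak that act in mitochondrial RNA and methionine metabolism, Cdh3, a cadherin, and Zfp712. The peak near Gng5 and Spata1 at chr3:146500225-146500424 held 17 CpG dinucleotides and the Dctn6 peak at chr8:34108161-34108360 held 13. Of the 28 peaks 4 held 10 or more CpG dinucleotides (14.3%, 5.7% to 31.5%), and the median was 3.5. The interval included the 6.62% of all young start-site peaks. The Olfr821 peak on H3K14ac had a GC content of 29.0% and no CpG dinucleotide. The 28 peaks lay nearest to a noncoding or unclassified gene in 10 cases and to a pseudogene in 6. Receptor genes were nearest to 2, an immunoglobulin segment to 1 and other protein-coding genes to 9. Of all young start-site peaks these kinds were nearest to 34.9%, 25.6%, 7.44%, 1.26% and 30.8%, in the same order. In old liver the 5 peaks lay at Ica1, Il11, Zscan18, Zfp658 and the small nuclear RNA gene Gm22943. The Zscan18 peak spanned the start site at chr7:12780554-12780753 and held 27 CpG dinucleotides at a GC content of 71.5%, and the Ica1 peak at chr6:8778204-8778403 held 23. Of these 5 peaks 3 held 10 or more CpG dinucleotides (60%, 23.1% to 88.2%), beside 6.87% of all old start-site peaks.

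Seen from the genes, the share with a Setdb1 peak was lower at protein-coding start sites that had an H3K14ac peak. In young liver 96 of 3963 genes with an H3K14ac peak within 1 kb of a start had a start-site Setdb1 peak, which is 2.42% (1.99% to 2.95%), and 718 of the 16844 without one, which is 4.26% (3.97% to 4.58%). In old liver the numbers were 35 of 5752, or 0.608% (0.438% to 0.845%), and 206 of 15055, or 1.37% (1.19% to 1.57%). The order of the shares was the same when olfactory and vomeronasal receptors were left out, at 2.30% against 3.76% in young and 0.526% against 1.14% in old liver. CpG content also differed between these genes, and whether it accounts for the lower share was not tested. In young liver 1427 of the 3963 genes with H3K14ac and 2982 of the 16844 without had a CpG ratio of 0.8 or more. In old liver 2354 of the 5752 with H3K14ac and 2055 of the 15055 without had such a ratio. Among these CpG-rich genes the shares with and without H3K14ac were 1.96% and 2.08% in young liver and 0.382% and 0.389% in old liver. In the class of 0.6 to 0.8 they were 2.09% and 3.69% in young liver, with intervals of 1.47% to 2.97% and 3.15% to 4.33%, and 0.468% (0.247% to 0.888%) and 0.802% (0.556% to 1.16%) in old liver. Under 0.2 they were 5.03% and 5.61% in young and 2.11% and 2.13% in old liver. The share with H3K14ac was the lower one in all 5 classes at both ages, and the intervals were apart only for 0.6 to 0.8 in young liver.

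With Kap1 the start-site share in young liver stood above those of Setdb1 peaks elsewhere and of the tiles. In old liver, with 8 peaks, it stood above that of the tiles in the main setting. In young liver 68 start-site Setdb1 peaks had a base in common with a Kap1 peak, which is 3.29% (2.60% to 4.15%), while all Setdb1 peaks stood at 1.63%, those away from start sites at 1.56% (1.45% to 1.68%) and the tiles at 1.17%. In old liver 8 did, which is 1.37% (0.698% to 2.69%), against 1.25% of all Setdb1 peaks, 1.25% of those elsewhere and 0.524% of tiles. The old interval included the share of peaks elsewhere. Protein-coding genes with a Kap1 peak within 1 kb of a start had a start-site Setdb1 peak in 110 of 1141 cases in young liver, or 9.64% (8.06% to 11.5%), and those without in 3.58%. In old liver the shares were 2.85% (14 of 492 genes, 1.70% to 4.72%) and 1.12%. Without the receptor genes they were 8.18% and 3.23% in young and 2.29% and 0.934% in old liver. The overlap shares were 1.93% in young and 0.515% in old liver where 50% of the Setdb1 peak had to be covered, and 7.10% and 3.09% with gaps up to 500 bp. With peaks of every width the old share was 2.50%. Without peaks that have a second copy it was 1.08% (6 of 553), and with protein-coding starts only 1.22% (3 of 246). These counts carry no interval here, so the old order against the tiles is given for the 8 peaks of the main setting only.

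**Figure D4:**
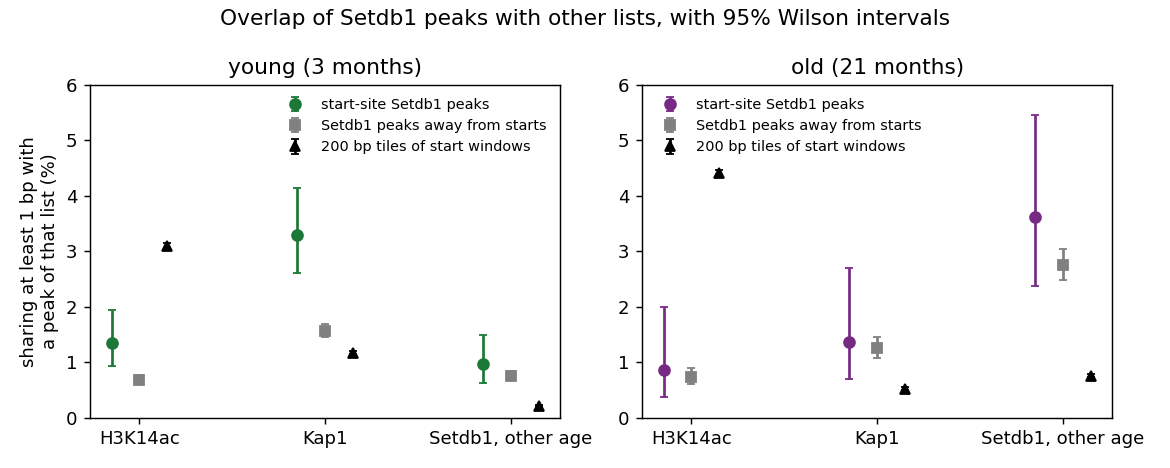
Percent of start-site Setdb1 peaks, of Setdb1 peaks away from start sites and of 200 bp tiles of the start-site windows that overlap a peak of H3K14ac, of Kap1 or of the Setdb1 list of the other age (y axis, with 95% Wilson intervals), in young and old liver. Start-site Setdb1 peaks stand below the tiles for H3K14ac (1.35% against 3.10% in young liver) and above them for Kap1 (3.29% against 1.17%).

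The 68 young peaks on Kap1 lay nearest to a pseudogene in 29 cases, to a receptor gene in 10 and to another protein-coding gene in 14, whereas of all young start-site peaks pseudogenes were nearest to 25.6%, receptor genes to 7.44% and other protein-coding genes to 30.8%. The receptor genes included Olfr429, Olfr1262, Olfr140, Olfr1344, Olfr517, Olfr530, Olfr975, Vmn1r70, Vmn1r191 and Vmn1r205. Of the 68 peaks 9 held 10 or more CpG dinucleotides (13.2%, 7.12% to 23.3%), beside 6.62% of all young start-site peaks, and the median was 2. The 9 included the peaks at Cdx2, a homeobox gene of the intestine, at chr5:147306792-147306991 with 19 CpG dinucleotides, Htra3, a serine protease, with 20, Tmem215 with 19, Rspo2, an activator of Wnt signalling, with 18, Schip1 with 14, Gpr37, an orphan receptor of brain, with 13, and Dpp6, a subunit of neuronal potassium channels, with 10. In old liver 6 of the 8 peaks on Kap1 lay nearest to a pseudogene, against 29.0% of all old start-site peaks, and 1 to Vmn1r72. No old start-site peak lay on both H3K14ac and Kap1 (0 of 582, interval up to 0.656%).

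Few start-site peaks were kept between the ages. In young liver 20 start-site peaks shared at least 1 bp with an old Setdb1 peak, which is 0.967% (0.627% to 1.49%), against 0.766% of all young Setdb1 peaks and 0.757% of those elsewhere. In old liver 21 start-site peaks shared a base with a young one, which is 3.61% (2.37% to 5.45%), against 2.79% of all old Setdb1 peaks and 2.75% of those elsewhere. The intervals at start sites included the shares elsewhere at both ages. Where 50% of the peak had to be covered the shares were 0.580% and 1.89%, and with gaps up to 500 bp 1.55% and 5.84%. Of the tiles, 0.214% met an old and 0.756% a young Setdb1 peak. By gene, 48 had a start-site peak in both lists, which is 8.04% of the genes with an old peak and 2.24% of those with a young peak, beside 4.18% and 1.17% of all genes with a young and an old peak. In 28 of the 48 the young and the old peaks had no base in common. These were genes such as Cacna1c, a calcium channel, Rfx6, a transcription factor of the pancreas, Pdpn, a glycoprotein of lymphatic vessels, and Syne1, a nuclear envelope protein.

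The 18 pairs described, with both peaks at start sites, shared between 12 bp, at Tas2r125, and 200 bp, at Gm10720, with a median of 122 bp, and 10 pairs shared 100 bp or more. The peak of Gm10720 had the same coordinates at both ages, chr9:3016088-3016287, but its sequence aligned to at least 21 places in the genome, the most that the search could report. The peak of the immunoglobulin segment Ighv1-23 had 2 copies, and the other 16 pairs were unique. Besides the genes whose sequences are shown above, pairs at coding genes lay at Adamts18, a secreted metalloprotease, Slc14a2, a urea transporter of kidney, and Mbp, myelin basic protein. A young Kap1 peak met the young peaks of Vmn1r70, Gm47379 and Gm10720, 3 of the 18, where 3.29% of all young start-site peaks met one. No old peak of the 18 met an old Kap1 peak and no young one met H3K14ac, where 1.37% and 1.35% of all start-site peaks of those ages did, too few for 18 peaks to show a difference. The pairs lay on either side of the start site, with young midpoints from -798 bp at Zscan25 to 919 bp at Kat6b-ps1, counted in the direction of transcription.

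**Figure D5:**
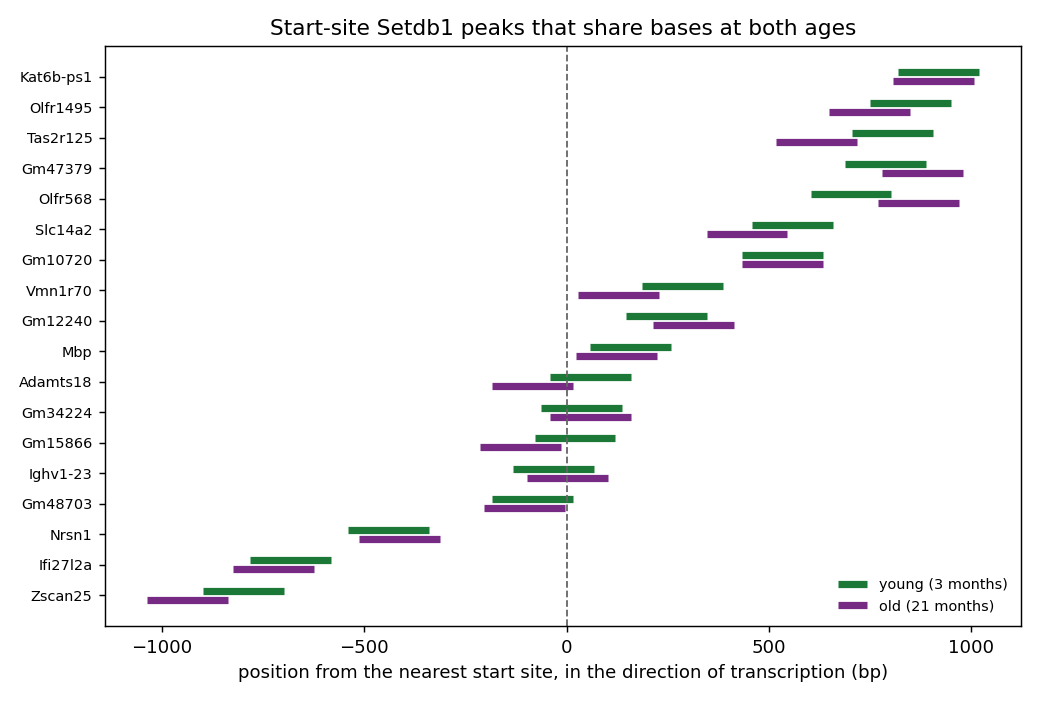
The 18 described pairs of start-site Setdb1 peaks that share bases between young and old liver, drawn to scale as 200 bp bars (x axis, bp from the nearest start site in the direction of transcription, with the start site as a dashed line) and labelled by gene. Young midpoints run from -798 bp at Zscan25 to 919 bp at Kat6b-ps1, and the overlap runs from 12 bp at Tas2r125 to 200 bp at Gm10720.

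The share of peaks with a second copy was larger near start sites, while repeat-masked sequence was less common there. A second copy in the genome was found for 3.00% of young start-site peaks (2.34% to 3.82%) and 0.822% of young peaks elsewhere, and for 4.98% of old start-site peaks (3.49% to 7.06%) and 0.934% of old peaks elsewhere. Wholly soft-masked peaks, which lie in annotated repeats, made up 0.967% of young and 0.515% of old start-site peaks, 2.43% and 2.57% of peaks elsewhere and 3.02% of tiles. Second copies were not counted for tiles. Both lists rest on uniquely aligned reads, so sequences with exact copies can be missing from every share above. By chromosome and per Mb of start-site window, young start-site peaks ranged from 12.7 on chromosome 11 to 29.1 on chromosome 19, and old ones from 2.54 on chromosome 11 to 7.40 on chromosome 7.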

How the data were processed

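Per the study's methods, BWA placed the ChIP-Seq reads on mm10 (GRCm38), Picard removed duplicate reads, and reads of high quality with a unique position were kept. The authors then merged livers by age and ran PeakSeq with input as control, at a threshold set for each mark. The methods and sample labels give 3 livers per age for Setdb1 and H3K14ac and 2 for Kap1. The deposited lists give chromosome, start and end of each peak, so depth per sample and precision between livers are unknown. Lists were used whole. The 4 sequential ChIP samples of the series were not analysed here.

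Transcript starts came from the GENCODE basic annotation (release M21, GRCm38). A peak was at a start site when the gap between its nearer edge and the start was at most 1 kb. Tiles of 200 bp were laid end to end over the merged windows. A second copy was sought with minimap2 2.31 and counted at 90% of the length and 95% identity or more. Motifs, all searched on both strands, came from 15 letter strings. Overlap meant at least 1 shared bp. Shares carry 95% Wilson intervals and no test was run, because each age has 1 pooled list. The overlap code was tested on simulated data against bedtools 2.31.1 and direct counting, and 100 of 100 checks were equal. The members and the 18 gene lists were chosen with earlier results of these data known. Genes named are those with peaks shared between ages, with peaks on both other marks, in the gene lists, or with the most peaks. Further H3K14ac and Kap1 sites, genes with unshared peaks at both ages and examples were named after their values were seen. A pair of peaks at 1 gene is not reported here. Alternatives were other windows, widths, start sites, overlap rules and the removal of second copies. Analyses used Python 3.11.15, numpy 2.4.6, pysam 0.24.0 and matplotlib 3.10.9.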

Additional observations from a re-analysis of the deposited data

How the results depend on the processing

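No paired analysis was possible because the livers of each age were pooled into 1 list before peaks were called. The shares of Setdb1 peaks at start sites follow the window by construction. A window of 500 bp gave 2.52% (young) and 2.71% (old), with 2 kb 7.85% and 7.69%, with protein-coding transcripts only 1.71% and 1.83%, and from the midpoint 3.95% in young liver. With at least 50% of the peak required, overlap with H3K14ac was 0.918% in young liver, with Kap1 1.93% in young and 0.515% in old liver, and with Setdb1 of the other age 0.580% and 1.89%. Where gaps up to 500 bp counted as overlap, H3K14ac stood at 3.00% and 2.58%, Kap1 at 7.10% and 3.09%, and the other age at 1.55% and 5.84%. With peaks of every width, Kap1 stood at 4.50% in young liver and H3K14ac at 2.0% in old liver. The share of genes was 3.68% in young and 1.01% in old liver with the 5′ end of the gene model only, and 3.91% in young liver for protein-coding genes. The other alternatives, including the removal of second copies, stayed within the intervals of the values given. The old counts on H3K14ac (5) and Kap1 (8) limit any statement on old liver.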
